A study of Mus musculus with 9 samples.

Results

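The genes described here make, convert or break down eicosanoids and platelet-activating factor (PAF), which are signalling lipids cut from membrane phospholipids. The 10 members were taken by gene symbol from the 56691 genes of the deposited table: the phospholipases A2 Pla2g4a and Pla2g7, the cyclooxygenases Ptgs1 and Ptgs2, the prostaglandin synthases Ptges and Hpgds, and the lipoxygenase pathway genes Alox5, Alox5ap, Ltc4s and Lta4h. All 10 symbols were found, each once. RNA was sequenced from RAW264.7 cells, a transformed mouse macrophage line that forms osteoclast-like cells when given RANKL, the cytokine that drives osteoclast formation. The 3 groups of 3 libraries each were control cells, cells given RANKL, and cells given RANKL together with UD, which is uridine, a pyrimidine nucleoside. Per the study's methods cells were collected on day 3. All libraries come from this 1 line, so neither primary precursors nor other bone cells were represented. The labels number the libraries as separate biosamples and say nothing of separate cultures, so the p-values measure the spread between these samples, which may be technical.

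Cytosolic phospholipase A2 releases arachidonic acid from membrane phospholipids. The cyclooxygenases convert it to prostaglandin H2, from which terminal synthases form prostaglandins E2 and D2, whereas 5-lipoxygenase with its activating protein converts it to leukotriene A4, from which the hydrolase makes leukotriene B4 and the synthase makes leukotriene C4. PAF is made from the lysophospholipid left by the same release step and is inactivated by PAF acetylhydrolases. Prostaglandin E2 made in bone is a known stimulus of osteoclast formation, and macrophages are a known source of both prostanoids and leukotrienes.

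Levels are given in FPKM, the count of a gene scaled to its exonic length and to the total count of the library, which can be compared between genes. Library totals lay between 15951800 and 19746862 counts. A change is a log2 fold change with its standard error (SE) from edgeR's quasi-likelihood test on the counts, and a gene was called higher or lower when its Benjamini-Hochberg adjusted p was under 0.05 over the 11995 genes with at least 1 FPKM in at least 3 libraries. The labels of the RANKL libraries were checked against osteoclast genes first. Acp5, the tartrate-resistant acid phosphatase, averaged 0.91 FPKM in control, 410.6 in RANKL and 341.3 in RANKL + UD cells, and Ctsk, the bone-degrading cathepsin K, averaged 8.34, 1491 and 869.3. The summed level of 10 osteoclast markers was 57.6 to 60.3 FPKM in control, 2715 to 2920 in RANKL and 1724 to 1761 in RANKL + UD libraries. The summed level of 8 macrophage markers was 9373 to 9965, 2496 to 2742 and 2177 to 2311 FPKM in the same order, most of it from Lyz2. Cd68 of that list went the other way with RANKL, averaging 549 FPKM in control, 782 in RANKL and 643 in RANKL + UD cells, while the other 7 were lower in RANKL than in control cells. Both sums moved with the groups, and their part in the members' values was not tested. Fewer cells of a type and less RNA per cell cannot be told apart in these bulk samples. None of 8 mast cell, 5 T cell, 4 B cell and 6 fibroblast or osteoblast markers reached the level needed for testing, and 6 of the mast cell markers were at 0 in every library.

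Against control cells, RANKL-treated cells had lower transcript levels of most of the tested members and a higher level of Pla2g7, a PAF hydrolase gene. Of the 8 members that passed the expression filter, 6 were called lower and 1, Pla2g7, was called higher, beside 30.2% of all tested genes called lower and 27.3% called higher. The FPKM ranges of the groups did not overlap for all 8 tested members, beside 61.7% of all tested genes. Pla2g7 passed the filter only through the RANKL libraries, and Ptgs2 reached 1 FPKM in the 3 control libraries and 1 RANKL library, so a difference between groups was built into their passing. The members' median was −1.24 on the log2 scale, beside −0.03 over all tested genes. Ptgs1 and Ptges did not pass the filter and were tested only under a looser one.

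With UD added to RANKL, 6 of the 10 members had a mean FPKM nearer to that of RANKL than to that of control cells. Pla2g7, Ptgs1, Ptges and Lta4h were nearer to control. This split is of FPKM on its linear scale. Its share over all genes was not computed, so nothing particular to the members is read from it. On the log2 scale of the fit, Pla2g7 in RANKL + UD cells differed by 4.07 from control and by −3.18 from RANKL cells. For Lta4h these were −0.088 and 0.077, so both genes lay nearer to RANKL on that scale. Between RANKL + UD and RANKL, 2 members (Pla2g4a and Alox5) were called higher, 1 (Pla2g7) lower and 5 neither, beside 18.6% of all tested genes called higher and 20.2% lower. The passing of Pla2g7 through the RANKL libraries alone favoured a fall in this comparison too. The FPKM ranges of the groups did not overlap for 5 of the 8, beside 51.7% of all tested genes. FPKM carries total-count scaling, whereas the calls use TMM scaling, and Hpgds and Lta4h were apart in FPKM without being called. The member median was 0.08, beside 0.005 over all tested genes. With libraries scaled by their total counts alone, the share of all calls that were higher rose from 48.0% to 66.2% in this comparison and fell from 47.5% to 36.8% in the comparison of RANKL with control. Between RANKL + UD and control, 1 member was called higher and 6 lower, beside 26.7% and 27.3% of all tested genes. The comparisons share libraries, so each one's values are given side by side below without a test of their likeness.

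**Figure D1:**
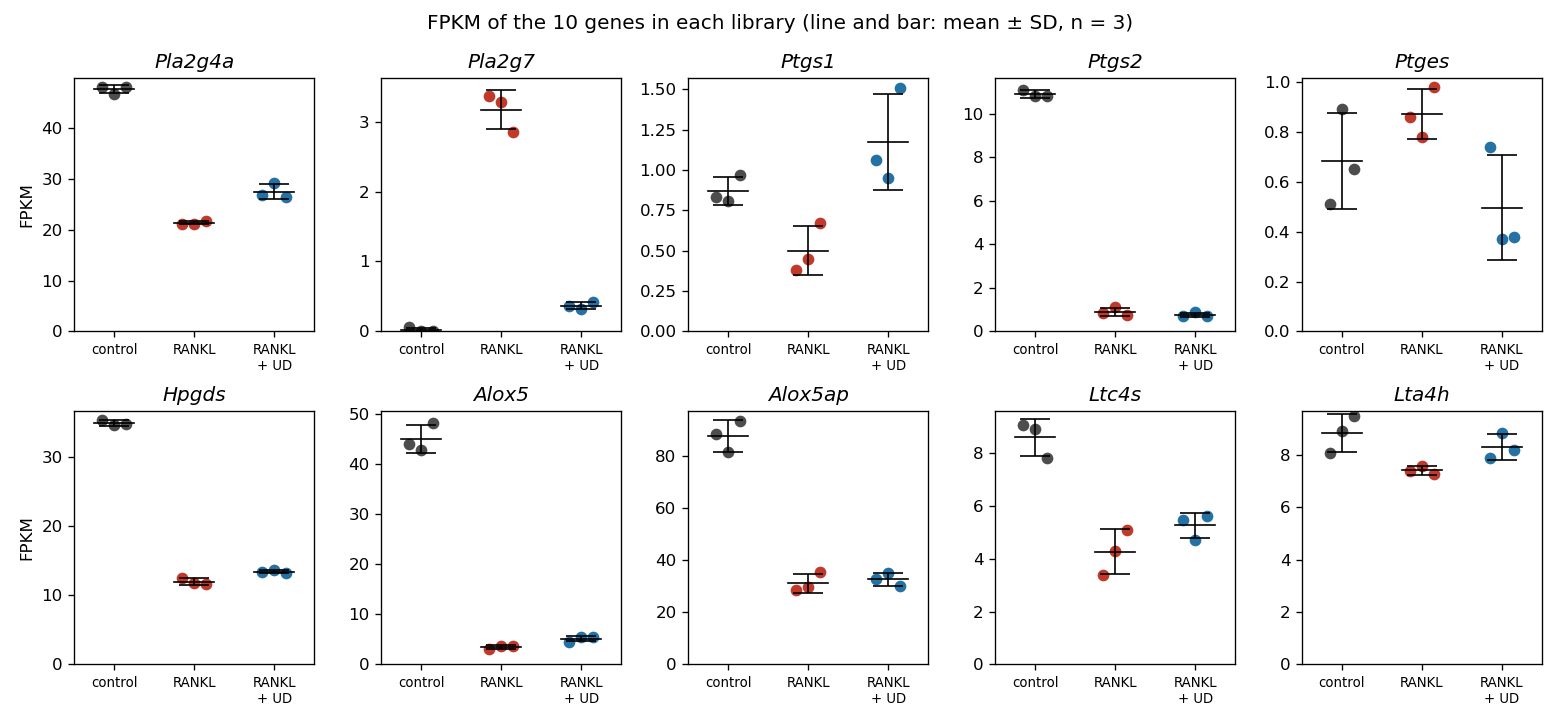
FPKM (y axis, linear, own scale for each gene) of the 10 genes in each of the 3 libraries of control, RANKL and RANKL + UD cells (x axis), with the mean and SD of each group. Control libraries are highest for Pla2g4a, Ptgs2, Hpgds, Alox5, Alox5ap and Ltc4s, and RANKL libraries are highest for Pla2g7.

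**Figure D2:**
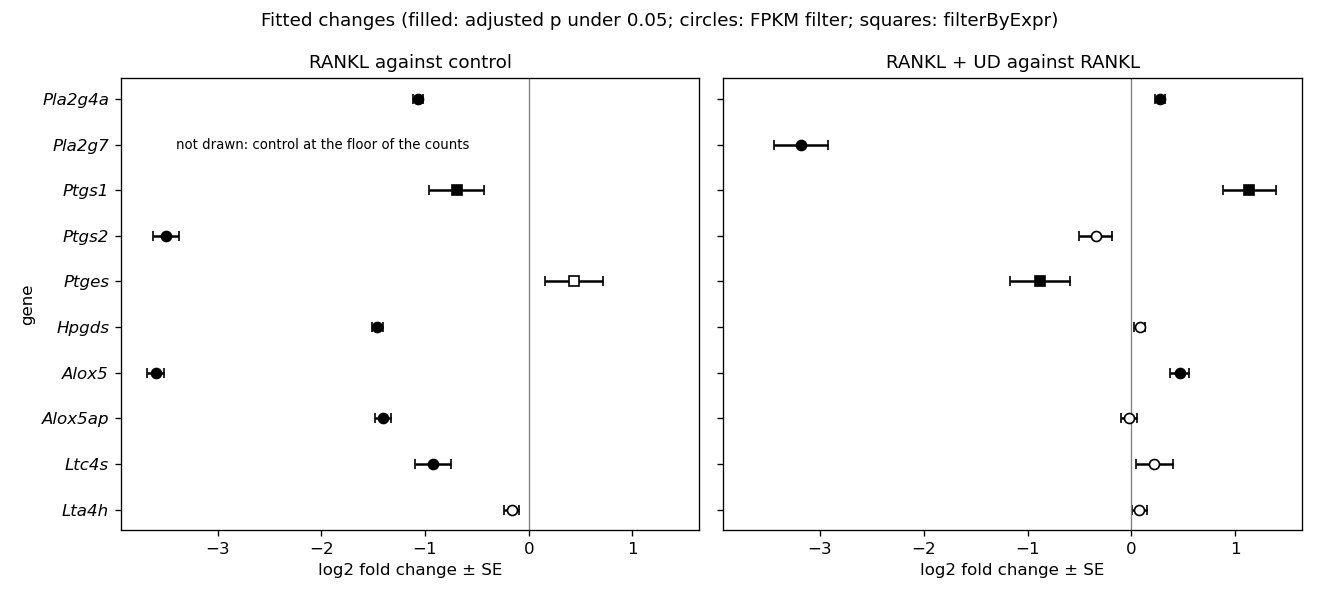
Log2 fold change with its SE (x axis) of each gene (y axis) for RANKL against control and for RANKL + UD against RANKL. Filled symbols passed an adjusted p of 0.05, and squares mark Ptgs1 and Ptges, which were tested under the looser filter. Ptgs2 and Alox5 lie near −3.5 on the left, and Pla2g7, whose control counts are too low for a drawn fold on the left, lies at −3.18 on the right.

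Promoter sequences are shown for the pair of cyclooxygenase genes, since Ptgs1 and Ptgs2 differed in their values under both treatments. They are also shown for Alox5, the other member that fell over 10-fold with RANKL, and for Pla2g7, the member that rose. Each runs 5′ to 3′ on the gene's own strand from 250 bases before to 50 bases after the RefSeq start in GRCm38.p6, and 9 of the 10 members had an entry, Alox5ap being the exception. Capitals mark matches on either strand to AP-1 (TGANTCA), NFAT (GGAAAA), the cAMP response half-site (TGACGT), the E-box (CACGTG) or the GC box (GGGCGG). The positions are chr1:150099781-150100080 on the plus strand for Ptgs2, chr2:36230176-36230475 on the plus strand for Ptgs1, chr6:116461129-116461428 on the minus strand for Alox5 and chr17:43568201-43568500 on the plus strand for Pla2g7.
Ptgs2: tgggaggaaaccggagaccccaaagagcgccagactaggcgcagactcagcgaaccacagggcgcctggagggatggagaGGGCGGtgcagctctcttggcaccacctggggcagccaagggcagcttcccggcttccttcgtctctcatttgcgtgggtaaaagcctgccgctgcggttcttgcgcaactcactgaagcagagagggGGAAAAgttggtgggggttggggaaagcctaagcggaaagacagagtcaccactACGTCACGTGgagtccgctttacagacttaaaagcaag
Ptgs1: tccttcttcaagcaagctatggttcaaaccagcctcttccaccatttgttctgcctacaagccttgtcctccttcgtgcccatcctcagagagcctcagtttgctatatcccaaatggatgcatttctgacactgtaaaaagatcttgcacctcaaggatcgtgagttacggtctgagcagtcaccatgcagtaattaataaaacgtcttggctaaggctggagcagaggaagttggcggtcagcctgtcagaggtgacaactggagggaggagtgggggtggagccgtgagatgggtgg
Alox5: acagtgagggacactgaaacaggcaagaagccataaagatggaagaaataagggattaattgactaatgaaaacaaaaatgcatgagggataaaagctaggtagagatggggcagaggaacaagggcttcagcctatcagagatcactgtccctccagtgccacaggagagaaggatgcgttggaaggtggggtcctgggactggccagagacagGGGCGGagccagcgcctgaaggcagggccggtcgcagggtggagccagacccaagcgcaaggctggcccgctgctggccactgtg
Pla2g7: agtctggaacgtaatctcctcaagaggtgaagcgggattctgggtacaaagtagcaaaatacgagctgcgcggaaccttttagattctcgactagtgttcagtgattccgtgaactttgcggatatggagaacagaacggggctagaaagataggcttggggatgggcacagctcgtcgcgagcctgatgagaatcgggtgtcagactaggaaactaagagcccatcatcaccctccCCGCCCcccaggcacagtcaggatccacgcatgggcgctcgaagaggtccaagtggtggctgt
The Ptgs2 window held 1 match each to NFAT, the cAMP response half-site, the E-box and the GC box. The half-site and the E-box overlap each other, starting 12 and 16 bases after the RefSeq start. The Alox5 and Pla2g7 windows each held 1 GC box, starting 35 and 13 bases before the start, and the Ptgs1 window held none of these letters. Among the 9 members' first promoters, 0 held AP-1, 2 NFAT (Ptgs2 and Lta4h), 1 the half-site, 1 the E-box and 4 a GC box (Pla2g7, Ptgs2, Ptges and Alox5). Of 32851 promoters of this length, 7.81% held AP-1, 23.4% NFAT, 7.51% the half-site, 7.15% the E-box and 35.7% the GC box. These matches describe letters in the window and were not measured as binding.

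The phospholipases A2 moved in opposite directions with RANKL. Pla2g4a (ENSMUSG00000056220) encodes cytosolic phospholipase A2, the enzyme that frees arachidonic acid, and lies at chr1:149705369-149837041 on the minus strand as the deposited table lists it. The positions of genes given from the table do not match the mm10 annotation that the labels name, so they are not comparable with the promoter positions above. Its level was 48.0, 46.8 and 48.2 FPKM in control, 21.2, 21.2 and 21.7 in RANKL, and 26.8, 29.2 and 26.5 in RANKL + UD libraries. The 3 groups were fully separated, with RANKL + UD between the other two. Pla2g4a fell by 1.07 on the log2 scale with RANKL (SE 0.048, adjusted p = 4.90e-14). It was higher in RANKL + UD than in RANKL cells by 0.28 (SE 0.049, adjusted p = 0.000123) and remained lower than in control cells, with a log2 fold change of −0.79 (SE 0.048, adjusted p = 7.78e-12). It was the second most abundant member in RANKL and in RANKL + UD cells.

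Pla2g7 (ENSMUSG00000023913, chr17:43878989-43923092, plus strand) encodes the secreted PAF acetylhydrolase, which cleaves PAF and oxidised phospholipids. It had 3, 0 and 0 counts in control, 193, 184 and 159 in RANKL, and 21, 15 and 21 in RANKL + UD libraries, which is 0.06, 0 and 0 FPKM, then 3.37, 3.28 and 2.85, then 0.37, 0.32 and 0.42. RANKL libraries were thus the only ones with more than 21 counts, and no groups overlapped. The pooled count per library total was 161 times higher in RANKL than in control cells, with an exact 95% counting interval of 54.9 to 784 (536 against 3 counts, adjusted p = 4.02e-12 in the edgeR fit). With UD it was 18.8 times higher than in control cells (interval 6.10 to 93.6, 57 against 3 counts, adjusted p = 9.67e-06). Those intervals cover counting error only. All 3 control counts came from control replicate 1. Without it, 3 counts over the other control libraries were taken as the floor. The level was then 109.6-fold higher in RANKL and 12.7-fold higher in RANKL + UD cells. These values leave out the only control library with counts, and the intervals over all libraries reach lower. Between RANKL + UD and RANKL cells Pla2g7 fell by 3.18 on the log2 scale (SE 0.26, adjusted p = 5.97e-09), a level 9.08-fold lower. Since it passed the expression filter only through the RANKL libraries, a difference from both other groups was built into its passing. In RANKL libraries Pla2g4a was 6.29 to 7.61 times the Pla2g7 level in FPKM, and in RANKL + UD libraries 63.1 to 91.1 times.

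The cyclooxygenases carry out the committed step of prostanoid synthesis, Ptgs1 as the form usually present at a steady level and Ptgs2 as the form induced by inflammatory signals. Ptgs2 (ENSMUSG00000032487, chr1:149975782-149983978, plus strand) measured 11.1, 10.8 and 10.8 FPKM in control, 0.83, 1.12 and 0.77 in RANKL, and 0.69, 0.87 and 0.73 in RANKL + UD libraries. Every control library was above every treated one, and the RANKL and RANKL + UD libraries overlapped. Ptgs2 fell by 3.50 on the log2 scale with RANKL (SE 0.12, adjusted p = 6.01e-16), to an 11.3-fold lower level. Between RANKL + UD and control the log2 fold change was −3.84 (SE 0.13, adjusted p = 2.92e-16). Between RANKL + UD and RANKL it was −0.34 (SE 0.16, adjusted p = 0.0989), which missed the threshold but passed it without RANKL replicate 3 (−0.44, adjusted p = 0.0472).

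Ptgs1 (ENSMUSG00000047250, chr2:36120438-36142284, plus strand) measured 0.83, 0.81 and 0.97 FPKM in control, 0.38, 0.45 and 0.67 in RANKL, and 1.06, 0.95 and 1.51 in RANKL + UD libraries. RANKL libraries were the lowest without overlap, while RANKL + UD and control overlapped. Its counts were 29 to 101 a library, and it reached 1 FPKM in only 2 libraries. Under edgeR's own expression filter, which kept 14065 genes, Ptgs1 was 2.20-fold higher in RANKL + UD than in RANKL cells (log2 fold change 1.14, SE 0.25, adjusted p = 0.00121), and this call held with each library left out in turn. The fall with RANKL was 0.70 on the log2 scale there (log2 fold change −0.70, SE 0.26, adjusted p = 0.0284). It lost its call without control replicate 3 (adjusted p = 0.0775), RANKL replicate 1 (0.123) or RANKL replicate 2 (0.0851). RANKL + UD against control gave 0.44 (SE 0.24, adjusted p = 0.133).

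The balance of the cyclooxygenase transcripts also separated the groups. Ptgs1 made up 6.96%, 6.96% and 8.24% of the summed Ptgs1 and Ptgs2 FPKM in control, 31.4%, 28.7% and 46.5% in RANKL, and 60.6%, 52.2% and 67.4% in RANKL + UD libraries. The groups did not overlap, and Ptgs1 exceeded Ptgs2 in all 3 RANKL + UD libraries and in no other library. The shares of treated cells rest on 29 to 101 Ptgs1 and 58 to 99 Ptgs2 counts a library. With 3 libraries in each group the smallest two-sided p that an exact permutation test allows is 0.1, so the share was not tested.

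**Figure D3:**
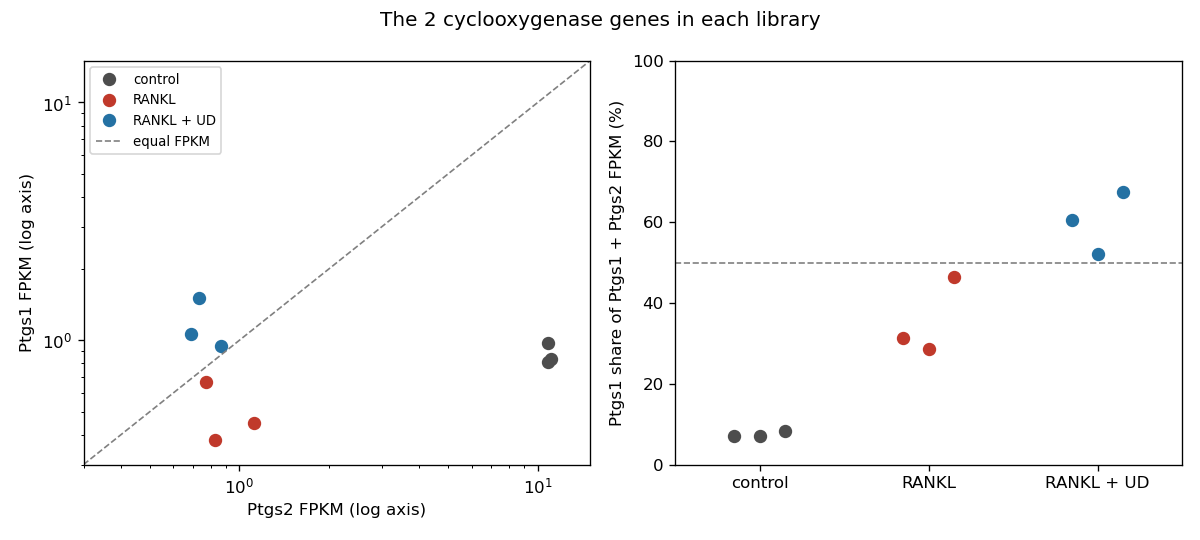
Left, Ptgs1 against Ptgs2 in FPKM (both log axes) in each library, with a dashed line of equal levels; right, Ptgs1 as a percent of the summed FPKM of both genes in each library of the 3 groups. Control libraries lie at 6.96% to 8.24%, RANKL libraries at 28.7% to 46.5%, and RANKL + UD libraries at 52.2% to 67.4%, above the dashed line of equal levels.

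Pla2g4a and Ptgs2 are neighbours on chromosome 1, facing away from each other with a gap of 138.7 kb in the table's coordinates. The 3 genes listed between them, among them Ptgs2os, were not expressed highly enough to be tested. Both neighbours fell with RANKL. With UD, Pla2g4a was called higher than in RANKL cells and Ptgs2 was not called.

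The terminal prostaglandin synthases differed in level. Hpgds (ENSMUSG00000029919, chr6:65094277-65121892, minus strand), the glutathione-dependent synthase of prostaglandin D2, measured 35.5, 34.7 and 34.8 FPKM in control, 12.5, 11.8 and 11.6 in RANKL, and 13.4, 13.7 and 13.3 in RANKL + UD libraries. All treated libraries were below all control libraries. Hpgds fell by 1.46 with RANKL (SE 0.050, adjusted p = 4.54e-16), and RANKL + UD against control gave −1.38 (SE 0.050, adjusted p = 1.27e-15). RANKL + UD libraries were all above RANKL libraries in FPKM, but the fitted difference was 0.08 (SE 0.051, adjusted p = 0.234), and it was called only when total counts set the scale (0.17, adjusted p = 0.0123) or in limma on log2 FPKM. It overlaps Gm17147 on the other strand, which averaged 33.4 counts a library, and whether strand was used in counting is not given in the sources used here.

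Ptges (ENSMUSG00000050737, chr2:30779483-30819875, minus strand), the inducible microsomal synthase of prostaglandin E2, was low throughout, at 0.51, 0.89 and 0.65 FPKM in control, 0.86, 0.78 and 0.98 in RANKL, and 0.74, 0.37 and 0.38 in RANKL + UD libraries. RANKL + UD libraries were all below RANKL libraries, and control overlapped both. Ptges overlaps Gm13400 on the same strand, which averaged 3.0 counts a library. Under edgeR's own filter RANKL + UD against RANKL gave −0.88 (SE 0.29, adjusted p = 0.0211). The call was lost without RANKL replicate 3 (adjusted p = 0.0793), RANKL + UD replicate 2 (0.101) or RANKL + UD replicate 3 (0.0971). The log2 fold change was 0.43 (SE 0.28, adjusted p = 0.196) for RANKL against control and −0.44 (SE 0.30, adjusted p = 0.227) for RANKL + UD against control, and without RANKL + UD replicate 1 the latter was −0.85 (adjusted p = 0.0326). Hpgds exceeded Ptges in FPKM in every library, by 38.9 to 69.5 times in control, 11.8 to 15.1 times in RANKL and 18.0 to 37.0 times in RANKL + UD.

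In the lipoxygenase pathway, Alox5 and the genes around it were lower with RANKL, apart from Lta4h, which missed the threshold. Alox5 (ENSMUSG00000025701, chr6:116387038-116438139, minus strand) encodes 5-lipoxygenase, which starts leukotriene synthesis. Its level was 44.1, 42.8 and 48.3 FPKM in control, 3.10, 3.73 and 3.67 in RANKL, and 4.56, 5.42 and 5.47 in RANKL + UD libraries. The groups were separated, with RANKL + UD just above RANKL and far below control. Alox5 fell by 3.60 with RANKL (SE 0.081, adjusted p = 5.23e-19), to a 12.1-fold lower level. It was 1.38-fold higher in RANKL + UD than in RANKL cells (log2 fold change 0.47, SE 0.092, adjusted p = 0.00036) and 8.76-fold lower than in control cells (log2 fold change −3.13, SE 0.079, adjusted p = 3.44e-18).

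Alox5ap (ENSMUSG00000060063, chr5:149201577-149224963, plus strand), which encodes the membrane protein that presents arachidonic acid to 5-lipoxygenase, was the most abundant member in all 3 groups. It measured 88.3, 81.4 and 93.5 FPKM in control, 28.6, 29.7 and 35.4 in RANKL, and 32.9, 35.0 and 30.1 in RANKL + UD libraries. The treated groups overlapped each other and lay below control. Alox5ap fell by 1.40 with RANKL (SE 0.078, adjusted p = 1.58e-12), and RANKL + UD against control gave −1.42 (SE 0.078, adjusted p = 1.51e-12). RANKL + UD against RANKL gave −0.02 (SE 0.081, adjusted p = 0.864), and the sign of this difference changed with the scaling. It overlaps Gm19719 on the other strand, with a mean of 21.0 counts a library. Alox5 was 0.50 to 0.53 of the Alox5ap level in FPKM in control, 0.10 to 0.13 in RANKL and 0.14 to 0.18 in RANKL + UD libraries, with no overlap between groups.

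The genes of the enzymes after leukotriene A4 had smaller log2 fold changes. Ltc4s (ENSMUSG00000020377, chr11:50127288-50129443, minus strand), the leukotriene C4 synthase, measured 9.07, 8.89 and 7.79 FPKM in control, 3.40, 4.29 and 5.09 in RANKL, and 5.47, 4.72 and 5.60 in RANKL + UD libraries. Control was above both treated groups, which overlapped. Ltc4s fell by 0.93 with RANKL (SE 0.17, adjusted p = 9.97e-05), and RANKL + UD against control gave −0.70 (SE 0.17, adjusted p = 0.00145). RANKL + UD against RANKL gave 0.22 (SE 0.18, adjusted p = 0.36). It has the shortest exonic length of the members and 68 to 178 counts a library, and it overlaps Gm26542 on the other strand, with a mean of 22.2 counts.

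Lta4h (ENSMUSG00000015889, chr10:93289273-93320737, plus strand), the hydrolase that makes leukotriene B4, varied little. It measured 8.08, 8.93 and 9.51 FPKM in control, 7.40, 7.58 and 7.27 in RANKL, and 7.90, 8.84 and 8.20 in RANKL + UD libraries. RANKL libraries were the lowest, and control and RANKL + UD overlapped. The log2 fold change was −0.17 (SE 0.071, adjusted p = 0.0527) for RANKL against control, which passed the threshold when total counts set the scale (−0.25, adjusted p = 0.00479). It was 0.08 (SE 0.071, adjusted p = 0.426) for RANKL + UD against RANKL and −0.09 (SE 0.071, adjusted p = 0.312) for RANKL + UD against control. Alox5 was 4.79 to 5.45 times the Lta4h level in control libraries, 0.42 to 0.50 in RANKL and 0.58 to 0.67 in RANKL + UD, so the order of these genes was the opposite in treated and untreated cells.

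Ordered by mean FPKM, control cells had Alox5ap (87.7) above Pla2g4a (47.6) and Alox5 (45.0), then Hpgds (35.0), Ptgs2 (10.9), Lta4h (8.84) and Ltc4s (8.58), with Ptgs1, Ptges and Pla2g7 under 1 FPKM. The ranges of Pla2g4a and Alox5, of Lta4h and Ltc4s, and of Ptgs1 and Ptges overlapped there. In RANKL cells the order was Alox5ap (31.2), Pla2g4a (21.4), Hpgds (12.0) and Lta4h (7.42), then Ltc4s (4.26), Alox5 (3.50) and Pla2g7 (3.17), neighbours in this last set overlapping, and then Ptgs2 (0.91), Ptges (0.87) and Ptgs1 (0.50). In RANKL + UD cells the first 4 kept that order, at 32.6, 27.5, 13.4 and 8.31 FPKM. Ltc4s (5.26) and Alox5 (5.15) overlapped next, followed by Ptgs1 (1.17) and then Ptgs2 (0.76), Ptges (0.50) and Pla2g7 (0.37), where neighbours overlapped. Pla2g7 was the member with the lowest mean in control and in RANKL + UD cells and ranked 7 in RANKL cells.

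Of 63 other genes of these pathways, 32 were expressed highly enough to be tested. With RANKL, 11 were called higher, 15 lower and 6 neither (median log2 change −0.16), beside 27.3% of all tested genes called higher and 30.2% lower. Between RANKL + UD and RANKL, 8 were called higher, 10 lower and 14 neither (median −0.10), beside 18.6% and 20.2% of all tested genes. Against control, RANKL + UD gave 9, 15 and 8 (median −0.14), beside 26.7% and 27.3%. By role, RANKL called 2 higher and 3 lower of 7 tested genes of arachidonate release, 4 and 3 of 9 of acyl remodelling and PAF metabolism, 2 and 1 of 4 prostanoid synthases, 0 and 2 of 3 other leukotriene enzymes, 2 and 3 of 5 genes of inactivation and transport, and 1 and 3 of 4 receptors. The same roles gave 0 and 2, 3 and 3, 2 and 0, 1 and 1, 1 and 1, and 1 and 3 for RANKL + UD against RANKL. With so few genes in a role and these shares over all tested genes, nothing particular to a role is read from its counts. The other lipoxygenases Alox12, Alox15, Alox8, Alox12b and Aloxe3 were at or below 0.05 FPKM in every group mean, so Alox5 was the only lipoxygenase of the list with a level above that.

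The genes of inactivation and transport went both ways with RANKL, with 3 called lower (Hpgd, Ptgr1 and Abcc4) and 2 higher (Ptgr2 and Abcc1). Hpgd, the 15-hydroxyprostaglandin dehydrogenase, had 209, 254 and 215 counts in control, 5, 2 and 11 in RANKL and 5, 0 and 11 in RANKL + UD libraries. These are mean levels of 7.67, 0.18 and 0.18 FPKM. Its log2 fold change with RANKL was −5.27 (SE 0.37, adjusted p = 8.57e-11), and it passed the expression filter only through the control libraries, so a difference was built into its passing. Ptgr1, a prostaglandin reductase, went from 6.23 to 1.31 FPKM (−2.16, SE 0.17, adjusted p = 6.40e-10), and Abcc4, a transporter that exports prostaglandins, from 11.7 to 3.66 FPKM (−1.59, SE 0.072, adjusted p = 4.64e-14). Dpep2, a dipeptidase that converts leukotriene D4, fell from 20.8 to 6.45 FPKM (−1.60, SE 0.075, adjusted p = 8.59e-14). It overlaps the tested genes Dus2 and Gm45752 on the other strand. Ptgr2, another prostaglandin reductase, went from 6.10 to 8.65 FPKM with RANKL (0.59, SE 0.071, adjusted p = 3.30e-07). Abcc1, an exporter of leukotriene C4, went from 14.4 to 19.8 FPKM (0.54, SE 0.047, adjusted p = 2.71e-09). These 2 genes lie outside the naming rule and were named after their values were seen. With UD, Abcc4 was higher than in RANKL cells, at 6.14 FPKM (0.66, SE 0.074, adjusted p = 4.67e-07), and Dpep2 was lower still, at 3.12 FPKM (−1.14, SE 0.086, adjusted p = 1.86e-09). Hpgd and Ptgr1 were not called between RANKL + UD and RANKL (adjusted p = 0.908 and 0.116).

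Among the genes of PAF signalling, the receptor and Pafah1b3 were highest with RANKL alone, as Pla2g7 was. Ptafr, the PAF receptor, measured 6.33, 6.28 and 4.96 FPKM in control, 10.9, 10.9 and 11.5 in RANKL, and 3.69, 4.72 and 4.54 in RANKL + UD libraries. RANKL libraries were the highest and RANKL + UD the lowest, with no overlap between groups. Ptafr rose with RANKL by 1.01 (SE 0.10, adjusted p = 2.85e-08), fell by 1.46 between RANKL + UD and RANKL (SE 0.11, adjusted p = 1.08e-09) and was lower than control with UD (−0.45, SE 0.11, adjusted p = 0.00163). Lpcat2, an acyltransferase that makes PAF in activated macrophages, went from 17.0 FPKM in control to 5.12 in RANKL (−1.64, SE 0.082, adjusted p = 2.47e-13) and 6.84 in RANKL + UD cells (0.33 against RANKL, SE 0.086, adjusted p = 0.00379). Lpcat1, a related acyltransferase, went the other way with RANKL, from 18.4 to 48.7 FPKM (1.49, SE 0.051, adjusted p = 4.32e-16). Pafah1b3, a catalytic subunit of an intracellular PAF acetylhydrolase, rose with RANKL from 7.26 to 11.1 FPKM (0.70, SE 0.098, adjusted p = 3.24e-06). Pafah1b3 was lower with UD, at 7.90 FPKM (−0.58 against RANKL, SE 0.098, adjusted p = 7.27e-05). The other PAF acetylhydrolase genes of the list did not share one direction with RANKL. Pafah2 was lower (−0.52, SE 0.17, adjusted p = 0.0119) and Pafah1b2 was not called (−0.006, SE 0.055, adjusted p = 0.937). Pafah1b1 was called higher (0.13, SE 0.047, adjusted p = 0.0254), a 1.09-fold change with overlapping FPKM ranges in control and RANKL libraries. These genes also lie outside the naming rule.

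**Figure D4:**
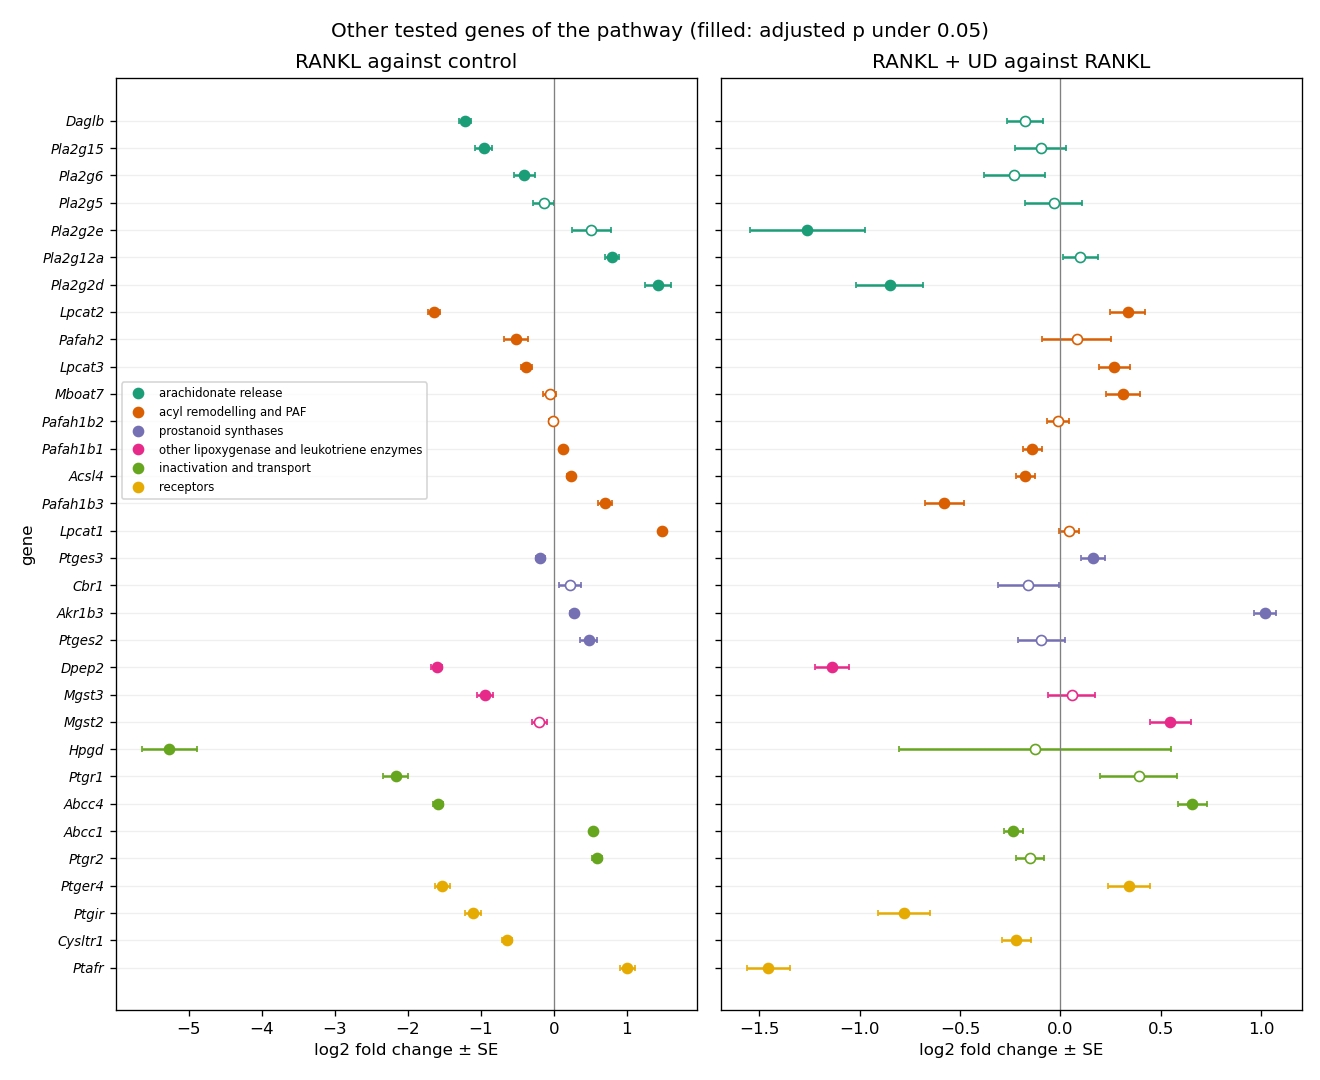
Log2 fold change with its SE (x axis, a different scale in each panel) of the 32 other tested genes of the pathway (y axis), coloured by role, for RANKL against control (left) and RANKL + UD against RANKL (right). Filled points passed an adjusted p of 0.05. Hpgd lies lowest on the left at −5.27, Ptafr lies at 1.01 on the left and −1.46 on the right, and Akr1b3 lies highest on the right at 1.02.

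Further named changes were in secreted phospholipases and prostanoid receptors. Pla2g2d, a secreted phospholipase A2, went from 1.61 FPKM in control to 4.05 in RANKL (1.42, SE 0.18, adjusted p = 6.59e-07) and 2.38 in RANKL + UD cells (−0.85 against RANKL, SE 0.17, adjusted p = 0.000411). Its relative Pla2g2e was lower with UD than with RANKL alone, at 1.59 against 3.58 FPKM (−1.26, SE 0.29, adjusted p = 0.00149), and Pla2g12a rose with RANKL from 4.02 to 6.58 FPKM (0.80, SE 0.092, adjusted p = 2.06e-07). The prostacyclin receptor gene Ptgir went from 7.92 FPKM in control to 3.47 in RANKL (−1.11, SE 0.11, adjusted p = 4.33e-08) and 2.13 in RANKL + UD cells (−0.78 against RANKL, SE 0.13, adjusted p = 5.88e-05). Ptger4, the prostaglandin E2 receptor EP4, averaged 5.14 FPKM in control, 1.68 in RANKL and 2.26 in RANKL + UD cells. Its difference between RANKL + UD and RANKL (0.34, SE 0.11, adjusted p = 0.0138) lost its call without RANKL replicate 2 (adjusted p = 0.0793) or RANKL + UD replicate 1 (0.0654). Ptger4 overlaps the tested gene Ttc33 on the other strand.

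Among the 32 tested genes of the list, the largest rise with UD was that of Akr1b3, an aldose reductase that can also form prostaglandin F2alpha. It went from 16.6 FPKM in RANKL to 35.6 in RANKL + UD cells (1.02, SE 0.054, adjusted p = 1.15e-11), beside 14.5 FPKM in control. Ptgds and Pla2g4c were too low to be tested, at 0.15 and 0.22 FPKM in RANKL and 0.81 and 0.48 in RANKL + UD cells. Mgst2, a microsomal glutathione transferase that can form leukotriene C4, averaged 8.48 FPKM in control, 6.98 in RANKL and 10.8 in RANKL + UD cells, with a rise between the treated groups of 0.55 (SE 0.10, adjusted p = 0.000175). It overlaps the tested gene Gm37261 on the same strand, so reads of this region may be split between them.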

How the data were processed

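Poly(A) RNA of RAW264.7 cells was sequenced as 9 libraries. The raw counts per gene and the FPKM values were deposited by the authors in 1 table, with the exonic length of each gene. The FPKM values were found to equal count over length and library total for all 56691 genes, so FPKM carries total-count scaling, whereas the test uses TMM. Per the labels the libraries were strand-specific. The labels name mm10, but only 1435 of 52073 shared genes have identical coordinates in a GRCm38 annotation. Aligner, counting tool and annotation are not given in the sources used here. The table names the RANKL columns as a model group, a name taken from the study's text.

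Counts of all 9 libraries were fitted together with edgeR 4.0.16 (R 4.3.3, TMM scaling, quasi-likelihood test) on the 11995 genes that reached 1 FPKM in 3 or more libraries. The fit was tested on simulated data. SE is the log2 fold change over the square root of F. Alternatives were DESeq2 1.42.0, limma 3.58.1 on log2(FPKM + 1) and log2(FPKM + 0.1), other scalings and filters, 6 libraries only, a replicate block and each library left out. Between same-group libraries chi-square per degree of freedom was 2.83 to 8.22, so none was merged. The genes named are all 10 members, and up to 5 rises and 5 falls of the pathway list in each of RANKL against control and RANKL + UD against RANKL. Members and lists were chosen with earlier results of these data known.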

Additional observations from a re-analysis of the deposited data

How the results depend on the processing

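Of 432 single-gene values recomputed for the 8 tested members, 418 kept their direction and side of the threshold, and 9 passed it that had not before (Lta4h in RANKL against control under 5 settings, Hpgds in RANKL + UD against RANKL under 3, Ptgs2 in the same comparison under 1). Alox5ap in RANKL + UD against RANKL turned from −0.02 to 0.0645 with total counts, to 0.0658 in limma on log2(FPKM + 1) and to 0.0678 on log2(FPKM + 0.1), and ranged from −0.0811 to 0.0769 with 1 library left out (positive without RANKL replicate 3 or RANKL + UD replicate 3). The number of members called lower in that comparison rose from 1 to 2 with no expression filter and with filterByExpr, where Ptges entered, and ranged from 1 to 2 with 1 library left out (2 without RANKL replicate 3, which added Ptgs2). Lta4h was called without control replicate 1 (−0.22, adjusted p = 0.0169). Same-numbered libraries shared little deviation (r −0.03 to 0.097 over 9 pairs, beside −0.102 to 0.064 for other pairs). The pairs of replicate 1 were the highest, at 0.097, 0.089 and 0.075. Whether the numbers pair the samples is thus not settled, and the main fit did not use them. With the replicate block, Lta4h in RANKL against control gave −0.16 (adjusted p = 0.0469), no other tested member changed its call, and calls over all genes in RANKL + UD against RANKL went from 4651 to 4865. Of 360 values of the named pathway genes, 358 kept their call, and Ptger4 in RANKL + UD against RANKL lost it without RANKL replicate 2 (0.27) or RANKL + UD replicate 1 (0.29). Ptgs1 and Ptges were tested with 1 library left out in settings added after seeing the data. Low counts limit Ptgs1, Ptges, Pla2g7 in control and Hpgd in treated cells.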
